A study of Mus musculus with 8 samples.

Results

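The regions described here are pairs of chromosome ends in mouse embryonic stem cells (mESCs), taken from the 5 chromosomes 12, 15, 16, 18 and 19, which carry ribosomal DNA (rDNA) near the centromere in mouse. Each region is a pair of 500-kb bins (genome build mm9) on 2 different chromosomes of this set, with both bins between 3 and 23 Mb. The windows held 200 bins, of which 199 were kept: the bin at 22 Mb of chromosome 12 had less than 0.1 of the median coverage of its chromosome and was left out. This gave 15840 of 16000 bin pairs in 10 of the 171 pairs of autosomes, or 0.147% of the 10785578 kept bin pairs on 2 different autosomes. They are called NOR ends below, after the nucleolar organizer region (NOR), and the comparison set is the 136847 pairs between 3 and 23 Mb of the other 14 autosomes. In that set the same limit left 31 of 40 bins on chromosome 7, 37 on chromosome 8 and 35 on chromosome 14. Chromosome 14 thereby lacks its bins at 3 and 3.5 Mb.

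A NOR is an array of rDNA repeats around which a nucleolus forms, and several NORs can join in one nucleolus. Chromosomes that carry them may thus be held near one another by their centromeric ends, and heterochromatin, pericentromeric satellite included, gathers at the nucleolar rim. Mouse autosomes have the centromere at one end, so each assembled chromosome begins with a gap of 3 Mb, and the arrays of satellite and rDNA are not in the assembled sequence that the bins cover. Which chromosomes carry rDNA differs between mouse strains. The sample labels give no strain, and the assignment of rDNA to the 5 chromosomes was not tested.

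The Hi-C libraries were made from mESCs that had received an antisense morpholino oligo (AMO) by nucleofection, at 5 nmol per 100 μl, and were sorted at 12 h and harvested at 36 h. The L1 AMO targets transcripts of the L1 retrotransposon, and the scramble oligo (SCR AMO) is the control. Each group has 2 samples, prepared with a small-scale in situ Hi-C protocol (sisHi-C), and values below are given for replicate 1 and then replicate 2. The comparison asks whether the NOR ends meet each other more often than other chromosome ends do, and whether this differs between cells given L1 AMO and SCR AMO. The oligos are shown because they are the only stated difference in treatment between the groups:
L1 AMO: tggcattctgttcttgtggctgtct
SCR AMO: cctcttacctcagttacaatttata
Both are 25 bases long. The L1 AMO has 12 G or C bases (48%) and the SCR AMO has 8 (32%).

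The NOR ends held 57522 contacts in SCR AMO replicate 1 and 10922 in SCR AMO replicate 2. They held 19033 contacts in L1 AMO replicate 1 and 12878 in L1 AMO replicate 2. A single bin pair had on average 3.63 and 0.690 contacts with SCR AMO and 1.20 and 0.813 with L1 AMO. SCR AMO replicate 1 was thus the deepest and SCR AMO replicate 2 the shallowest, so that 7.99% of the bin pairs had no contact in the first and 53.4% had none in the second. With L1 AMO 36.8% and 49.2% of the bin pairs were empty. Most values below are therefore means over many bin pairs, and single bin pairs are given with their contacts. The counting error was at most 0.957% for all NOR ends together and 3.83% for the chromosome pair with the fewest contacts.

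As a share of all contacts between kept autosomal bins on different chromosomes, the NOR ends took 0.243% (Wilson 95% interval 0.241 to 0.245) in SCR AMO replicate 1 and 0.229% (0.225 to 0.233) in SCR AMO replicate 2. The shares were 0.221% (0.218 to 0.224) in L1 AMO replicate 1 and 0.208% (0.204 to 0.212) in L1 AMO replicate 2. Both L1 AMO shares lay below both SCR AMO shares, and all 4 lay above the 0.147% that the NOR ends make up of the bin pairs. The intervals cover counting error only.

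To remove differences in coverage between bins, each map was balanced genome-wide, and contacts are given as observed/expected, the balanced contact frequency over its mean for all bin pairs on different autosomes. The NOR ends had a mean observed/expected of 1.81 and 1.67 with SCR AMO (mean 1.74 ± 0.0989, SD, n = 2) and 1.73 and 1.68 with L1 AMO (mean 1.71 ± 0.0378, SD, n = 2). The groups overlapped. Ends of the other autosomes had 1.49 and 1.46 among themselves with SCR AMO (mean 1.48 ± 0.0171, SD, n = 2) and 1.57 and 1.59 with L1 AMO (mean 1.58 ± 0.0149, SD, n = 2). Here both values with L1 AMO were above both with SCR AMO. Pairs of a NOR end and another end had 1.51 and 1.46 with SCR AMO and 1.46 and 1.44 with L1 AMO, with the L1 AMO samples below.

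The proximal ratio, the log2 ratio of NOR ends to other ends within a sample, was 0.28 and 0.19 with SCR AMO and 0.14 and 0.079 with L1 AMO. It was above 0 in 4 of 4 samples, with p = 0.13 in a two-sided exact sign-flip permutation test, the smallest p that 4 samples can give. Both values with L1 AMO were below both with SCR AMO, by -0.13 between the group means, with p = 0.33 in a two-sided exact permutation test. This difference was -0.17 to -0.081 with 1 sample left out. With 2 samples per group 0.33 is the smallest p possible, so no such value can reach 0.05. These p-values measure the spread between these samples only. The 2 terms of the ratio differed: the other ends were higher in L1 AMO, while the NOR ends overlapped between groups.

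The mixed ratio, that of NOR ends with other ends over other ends among themselves, was 0.020 and -0.0022 on the log2 scale with SCR AMO and -0.11 and -0.14 with L1 AMO. The L1 AMO samples lay below by -0.13 (two-sided exact permutation p = 0.33). When only contacts between autosomes were balanced, the mixed ratio was -0.23 and -0.22 with SCR AMO and -0.25 and -0.24 with L1 AMO, so that its level depended on the balancing while L1 AMO stayed below.

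The sign of the proximal ratio depended on how the maps were balanced. Genome-wide balancing fixes the total of every bin, contacts within the chromosome included, so a bin with a larger share of contacts with other chromosomes has higher values between chromosomes. In the windows of the NOR ends that share of balanced contacts was 31.5% and 32.1% with SCR AMO and 22.4% and 20.3% with L1 AMO. In the windows of the other autosomes it was 25.9% and 27.2% with SCR AMO and 19.8% and 18.5% with L1 AMO. The NOR ends were higher in each sample, and the gap was wider in SCR AMO than in L1 AMO.

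When only contacts between autosomes were balanced, the NOR ends had a mean observed/expected of 1.18 and 1.14 with SCR AMO and 1.19 and 1.19 with L1 AMO. The other ends had 1.44 and 1.40 with SCR AMO and 1.42 and 1.40 with L1 AMO. The proximal ratio was then -0.29 and -0.29 with SCR AMO and -0.25 and -0.24 with L1 AMO. It lay below 0 in 4 of 4 samples (two-sided exact sign-flip permutation p = 0.13), and the L1 AMO samples lay above the SCR AMO samples by 0.042 (two-sided exact permutation p = 0.33). Without any balancing the proximal ratio was 0.32 and 0.23 with SCR AMO and 0.061 and -0.062 with L1 AMO, in the order of groups that genome-wide balancing gave. The excess of NOR ends and the direction between groups thus turned when only contacts between autosomes were balanced. How much of either came from the share of contacts with other chromosomes was not tested. Observed/expected values from here on use genome-wide balancing unless stated.

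The NOR chromosomes are short, with a median length of 98.3 Mb against 141 Mb for the other autosomes. Against 11, 13, 14 and 17, which are 4 of the 5 shortest other autosomes (median 121 Mb), the proximal ratio was 0.057 and -0.023 with SCR AMO and -0.062 and -0.16 with L1 AMO. Ends of these 4 had a mean observed/expected of 1.74 and 1.70 among themselves with SCR AMO and 1.81 and 1.88 with L1 AMO. The NOR ends thus exceeded these 4 in 1 of 4 samples. Chromosome 9, the other of those 5 (124 Mb, against 125 Mb for chromosome 14), was not in this set. Its window had a mean over the 4 samples of 1.75 with chromosome 11, 1.45 with 13, 1.65 with 14 and 1.65 with 17. The ratio with chromosome 9 included was not computed. Across the 91 pairs of other autosomes, observed/expected of the windows was lower where the 2 chromosomes were longer (Pearson r = -0.41 between log2 values and the log2 product of the lengths, a description across pairs that share chromosomes). Relative to the line of this relation the NOR pairs had a mean of -0.16 on the log2 scale, with 2 of 10 above it. Most NOR pairs have a smaller product of lengths than any of the 91 pairs. The line was thus extended beyond the pairs that gave it, and it cannot tell whether NOR ends were low for their length.

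Local enrichment compares the windows with the rest of the same chromosomes, so that a property of a whole chromosome divides out. For the NOR chromosomes the log2 ratio of pairs with both bins in the window to pairs with neither was 0.70 and 0.62 with SCR AMO and 0.70 and 0.67 with L1 AMO. It was above 0 in 4 of 4 samples (two-sided exact sign-flip permutation p = 0.13) and the groups overlapped. For the other autosomes it was 0.61 and 0.58 with SCR AMO and 0.68 and 0.70 with L1 AMO, with L1 AMO above. NOR minus other autosomes gave 0.092 and 0.036 with SCR AMO and 0.019 and -0.027 with L1 AMO. This was above 0 in 3 of 4 samples (two-sided exact sign-flip permutation p = 0.375), and L1 AMO lay below SCR AMO. Under balancing between autosomes it was -0.25 and -0.25 with SCR AMO and -0.25 and -0.23 with L1 AMO, below 0 in 4 of 4 samples. The centromeric ends were thus enriched over the rest of their chromosomes in both sets, and which set was enriched more depended on the balancing and on the bins included. Without chromosome 16 the difference was -0.12 and -0.15 with SCR AMO and -0.25 and -0.31 with L1 AMO. Without the first bins, a step chosen after seeing the data, it was 0.054 and -0.0031 with SCR AMO and -0.079 and -0.14 with L1 AMO.

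At the opposite end, the last 20 Mb, the NOR chromosomes had a mean observed/expected of 1.44 and 1.37 among themselves with SCR AMO and 1.36 and 1.33 with L1 AMO. The last 20 Mb of the other autosomes had 1.55 and 1.47 with SCR AMO and 1.36 and 1.32 with L1 AMO, so that L1 AMO lay below in both sets. The log2 ratio of the NOR chromosomes to the others was -0.10 and -0.10 with SCR AMO and -0.0024 and 0.0075 with L1 AMO. L1 AMO lay above SCR AMO there by 0.11 (two-sided exact permutation p = 0.33), the opposite direction to the proximal ratio, as the other autosomes fell by more. Against chromosomes 11, 13, 14 and 17 the distal ratio was 0.20 and 0.14 with SCR AMO and 0.20 and 0.20 with L1 AMO, so that the groups overlapped and the NOR chromosomes were higher in each sample.

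Among the 10 pairs of NOR chromosomes, the window mean, averaged over the 4 samples, ranged from 1.20 to 3.01, with a median of 1.59 against 1.47 for the 91 pairs of other autosomes. All 10 lay above 1, as did all 171 pairs of autosomes. Under balancing between autosomes the median was 1.16 for the NOR pairs and 1.41 for the other pairs, so that the order turned. Under genome-wide balancing chromosomes 16 and 19 had the highest value of the 171 pairs. They had 2.90 and 2.60 with SCR AMO and 3.30 and 3.23 with L1 AMO. L1 AMO lay above SCR AMO in this pair. Under balancing between autosomes it ranked 27 of 171. Chromosomes 16 and 18 came next among NOR pairs, ranked 9 of 171 under genome-wide balancing and 110 of 171 under balancing between autosomes. This pair had 2.05 and 1.84 with SCR AMO and 2.07 and 2.03 with L1 AMO, and the groups overlapped.

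Chromosomes 18 and 19 had 1.98 and 1.78 with SCR AMO and 1.79 and 1.68 with L1 AMO, which overlapped. Chromosomes 12 and 16 had 1.89 and 1.75 with SCR AMO and 1.66 and 1.58 with L1 AMO. Chromosomes 12 and 19 had 1.87 and 1.66 with SCR AMO and 1.55 and 1.47 with L1 AMO. In the last 2 pairs both L1 AMO samples lay below. Chromosomes 12 and 18 had 1.70 and 1.53 with SCR AMO and 1.52 and 1.37 with L1 AMO, again lower in L1 AMO.

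By the mean of the 4 samples the 4 pairs with chromosome 15 were the lowest of the 10. Chromosomes 15 and 16 had 1.52 and 1.43 with SCR AMO and 1.44 and 1.47 with L1 AMO, which overlapped. Chromosomes 15 and 18 had 1.48 and 1.51 with SCR AMO and 1.43 and 1.43 with L1 AMO, and chromosomes 15 and 19 had 1.47 and 1.41 against 1.39 and 1.29. In both pairs the L1 AMO samples lay below. Chromosomes 12 and 15 were lowest, at rank 163 of 171, with 1.25 and 1.19 with SCR AMO and 1.15 and 1.22 with L1 AMO, which overlapped.

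L1 AMO thus lay above SCR AMO, with no overlap, in 1 of the 10 NOR pairs, against 40.9% of all 171 autosome pairs. It lay below in 5 of 10, against 26.3% of all pairs, and the groups overlapped in 4. Of the 91 pairs of other autosomes, L1 AMO lay above in 54 and below in 6. Of the 70 pairs of a NOR end and another end, it lay above in 15 and below in 34. Under balancing between autosomes L1 AMO lay above in 2 of the 10 NOR pairs (16.4% of all pairs) and below in 2 (31.0% of all pairs). Of the 91 pairs of other autosomes it then lay above in 13 and below in 21, so that their balance turned. Of the 70 pairs of a NOR end and another end it then lay above in 13 and below in 30.

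By distance from the start of the assembly, contacts between NOR ends were densest in the first 5 Mb. With both bins at 3 to 8 Mb the NOR ends had 3.06 and 2.74 with SCR AMO and 3.85 and 3.99 with L1 AMO. Other ends had 2.24 and 2.17 with SCR AMO and 2.50 and 2.62 with L1 AMO. L1 AMO was higher in both sets, and NOR ends were higher than other ends in each sample. With both bins at 8 to 13 Mb the NOR ends had 1.91 and 1.76 with SCR AMO and 1.68 and 1.55 with L1 AMO, so that the order of the groups was the opposite of that in the first 5 Mb. Other ends had 1.39 and 1.37 with SCR AMO and 1.45 and 1.44 with L1 AMO, and kept L1 AMO above.

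At 13 to 18 Mb the NOR ends had 1.41 and 1.34 with SCR AMO and 1.39 and 1.27 with L1 AMO. At 18 to 23 Mb they had 1.31 and 1.15 with SCR AMO and 1.20 and 1.14 with L1 AMO. The groups overlapped in both windows, and at 18 to 23 Mb the other ends (1.32, 1.31, 1.38 and 1.40 in the same order) lay above the NOR ends in each sample. Beyond 23 Mb the NOR chromosomes had 1.33 and 1.31 with SCR AMO and 1.29 and 1.15 with L1 AMO at 23 to 28 Mb. The decline was not steady: at 33 to 38 Mb they had 1.48 and 1.55 with SCR AMO and 1.40 and 1.35 with L1 AMO, above 18 to 23 Mb in each sample. In each of the 5-Mb windows from 23 to 38 Mb L1 AMO lay below. Pairs of a NOR chromosome and another autosome also had L1 AMO below in each of these windows. Pairs of other autosomes had it below at 23 to 28 and 28 to 33 Mb, and their groups overlapped at 33 to 38 Mb. At 43 to 48 Mb they had 0.970 and 1.06 with SCR AMO and 0.993 and 0.949 with L1 AMO, close to the mean of all bin pairs between autosomes.

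For the NOR ends the higher values of L1 AMO in the first 5 Mb involved the first bin, 3 to 3.5 Mb. Between first bins the NOR chromosomes had 50.5 and 46.9 with SCR AMO and 88.1 and 108 with L1 AMO. The first bins of other autosomes had 22.6 and 23.3 with SCR AMO and 32.8 and 38.4 with L1 AMO. In both sets L1 AMO lay above SCR AMO. These means rested on few bin pairs: chromosomes 16 and 19 and chromosomes 16 and 18 made up 92.6% of the sum over the 10 NOR pairs. The median over the 10 NOR pairs was 5.33 and 6.67 with SCR AMO and 7.39 and 8.39 with L1 AMO. Over the 78 pairs of other autosomes it was 5.29 and 6.15 with SCR AMO and 6.76 and 8.11 with L1 AMO, so that the medians of the 2 sets lay close together. Without the 2 highest pairs the median over the NOR pairs was 4.41 and 5.27 with SCR AMO and 5.59 and 3.77 with L1 AMO, and the groups overlapped. The mean over these NOR pairs was 5.69 and 6.26 with SCR AMO and 8.87 and 6.51 with L1 AMO, with L1 AMO above. Other autosomes without their 2 highest pairs had a mean of 15.0 and 15.0 with SCR AMO and 21.3 and 24.6 with L1 AMO. Their median was 4.96 and 5.84 with SCR AMO and 6.65 and 7.87 with L1 AMO. L1 AMO lay above in both, and the mean exceeded that of the NOR pairs in each sample. The 2 pairs left out were 2 of 78 here and held 36.8% of the sum, against 2 of 10 and 92.6% for the NOR pairs. The means of the 2 sets after this step are therefore not on equal terms.

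With both bins at 3.5 to 8 Mb the NOR ends had 2.16 and 1.94 with SCR AMO and 2.00 and 1.88 with L1 AMO, and the groups overlapped. Other ends had 1.79 and 1.74 with SCR AMO and 1.87 and 1.88 with L1 AMO there, and L1 AMO still lay above.

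Leaving out the first bins, a step chosen after these values were seen, gave a proximal ratio of 0.25 and 0.15 with SCR AMO and 0.045 and -0.033 with L1 AMO. L1 AMO then lay above in 0 of the 10 NOR pairs (33.9% of all pairs) and below in 7 (33.3% of all pairs). The pair of chromosomes 16 and 19 had 2.34 and 2.09 with SCR AMO and 2.09 and 1.91 with L1 AMO. In this pair L1 AMO minus SCR AMO was thus 0.25 on the log2 scale with the first bins and -0.15 without them.

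Single pairs of first bins were also high outside the NOR chromosomes. The first bins of chromosomes 4 and 8 had 295 and 380 with SCR AMO and 470 and 576 with L1 AMO, and those of chromosomes 4 and 6 had 323 and 304 with SCR AMO and 466 and 549 with L1 AMO. L1 AMO lay above in both.

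Among the NOR ends the first bin of chromosome 16 was the highest. Its mean with the other 4 NOR ends was 9.74 and 9.12 with SCR AMO and 17.3 and 19.1 with L1 AMO, the top value of the 199 bins. Both L1 AMO samples lay above. Its coverage was 0.39 of the median of its chromosome, below the other 4 first bins, which had 0.81 to 1.00. Whether its sequence is rightly placed in mm9, or shared with the starts of other chromosomes, was not tested, and this limits the values of the bin and of the pair of chromosomes 16 and 19. The bin shared 286 and 61 contacts with the first bin of chromosome 19 with SCR AMO and 161 and 146 with L1 AMO. The observed/expected of this bin pair was 340 and 332 with SCR AMO and 593 and 782 with L1 AMO.

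With the first bin of chromosome 18 it shared 112 and 18 contacts with SCR AMO and 66 and 53 with L1 AMO. The observed/expected of that bin pair was 120 and 87.0 with SCR AMO and 217 and 248 with L1 AMO, so that L1 AMO lay above in both bin pairs. No other bin pair of the NOR ends had at least 10 contacts in every sample. With its neighbour on its own chromosome, at 3.5 Mb, the bin had 1477 and 1398 on the same scale with SCR AMO and 2195 and 2463 with L1 AMO.

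Along chromosome 19 the contacts of the first bin of chromosome 16 were highest at the start. At 3.5 Mb of chromosome 19 observed/expected was 54.9 and 36.0 with SCR AMO and 145 and 186 with L1 AMO. At 5 Mb it was 13.1 and 20.2 with SCR AMO, from 15 and 5 contacts, and 76.8 and 80.2 with L1 AMO, from 28 and 20 contacts. At both positions L1 AMO lay above. At 20 Mb it was 10.6 and 23.5 with SCR AMO and 22.9 and 15.8 with L1 AMO, from 3 to 8 contacts per sample, and the groups overlapped. With the first bin of chromosome 15 it shared 5 and 2 contacts with SCR AMO and 4 and 3 with L1 AMO, and with that of chromosome 12 it shared 3, 1, 0 and 0 in the same order. With chromosome 16 left out, the proximal ratio was 0.13 and 0.049 with SCR AMO and -0.092 and -0.17 with L1 AMO, so that its sign differed between the groups.

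The first bin was also the highest of its window on chromosomes 12, 18 and 19. On chromosome 19 its mean with the other NOR ends was 5.44 and 4.87 with SCR AMO and 6.94 and 7.86 with L1 AMO. On chromosome 18 it was 3.79 and 3.35 with SCR AMO and 4.43 and 4.34 with L1 AMO. L1 AMO lay above in both bins. On chromosome 12 it was 2.63 and 2.42 with SCR AMO and 2.72 and 2.47 with L1 AMO, which overlapped. On chromosome 15 the highest bin lay at 8 Mb instead, with 2.24 and 1.97 with SCR AMO and 1.86 and 1.76 with L1 AMO, and L1 AMO lay below.

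The lowest bins lay deeper in the windows. The lowest of the 199 was at 18 Mb of chromosome 15, with 1.07 and 0.585 with SCR AMO and 0.781 and 0.876 with L1 AMO. It was the only bin with a mean of the 4 samples under 1. The lowest bins of the other 4 windows were at 18.5 Mb of chromosome 12 (mean of the 4 samples 1.33), 22.5 Mb of chromosome 16 (1.31), 19.5 Mb of chromosome 18 (1.22) and 14 Mb of chromosome 19 (1.55). Over single bins of the NOR ends, L1 AMO lay above SCR AMO in 12 of 199, against 51.6% of the 543 bins of the other ends measured among themselves. It lay below in 73 of 199, against 10.7% of the other bins. Chromosome 12 had the most NOR bins with L1 AMO below, 20 of 39, and chromosome 19 the fewest, 11 of 40. These counts were made under genome-wide balancing only. A NOR bin was also averaged over fewer partner bins than a bin of the other ends, so the noise per bin differs between the 2 sets.

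The windows also differed in compartment, the A (more active) or B class given by the sign of the first eigenvector of the contacts within chromosomes. Of the NOR bins 98 of 199 (49.2%) were A, against 162 of 543 (29.8%) in the other windows. Chromosome 16 had the most, 30 of 40, and chromosome 15 the fewest, 11 of 40. Among pairs of A bins the log2 ratio of NOR ends to other ends was 0.065 and -0.072 with SCR AMO and 0.024 and -0.12 with L1 AMO, and the groups overlapped. Among pairs of B bins it was 0.41 and 0.32 with SCR AMO and 0.23 and 0.27 with L1 AMO. Between A bins and B bins it was 0.18 and 0.11 with SCR AMO and 0.058 and 0.00065 with L1 AMO. In these 2 classes L1 AMO lay below, and with the first bins included the excess of NOR ends was largest between B bins. Without the first bins the ratio among pairs of B bins was 0.26 and 0.17 with SCR AMO and -0.037 and -0.016 with L1 AMO, so that the excess between B bins was smaller and its sign differed between the groups. Among pairs of A bins it was then 0.12 and -0.0061 with SCR AMO and 0.10 and -0.037 with L1 AMO. Without the first bins the B bins thus led the A bins in both SCR AMO samples, but in L1 AMO only in replicate 2.

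Each window was also ranked by its mean observed/expected with the NOR ends of other chromosomes. Among the NOR chromosomes, 16 had the highest value, 2.09 and 1.91 with SCR AMO and 2.12 and 2.08 with L1 AMO. Chromosome 19 followed with 2.06 and 1.86 with SCR AMO and 2.01 and 1.92 with L1 AMO. The groups overlapped in both, and the 2 chromosomes differed in each sample by no more than the SCR AMO samples did from each other. Chromosome 15 was lowest with 1.43 and 1.39 with SCR AMO and 1.35 and 1.35 with L1 AMO.

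Of the other 14 autosomes, 14, 8 and 17 met the NOR ends most often, although the windows of 14 and 8 were incomplete (35 and 37 of 40 bins). Chromosome 14 had 1.79 and 1.75 with SCR AMO and 1.84 and 1.87 with L1 AMO, with L1 AMO above. Chromosome 8 had 1.85 and 1.72 with SCR AMO and 1.72 and 1.64 with L1 AMO, and chromosome 17 had 1.81 and 1.73 against 1.71 and 1.64. Both had L1 AMO below, and all 3 lay above the NOR chromosomes 12 and 15 in each sample. The lowest were chromosomes 5, 6 and 3, with means over the 4 samples of 1.27, 1.26 and 1.19. The order depended on the balancing. When only contacts between autosomes were balanced, 17, 14 and 7 were highest (means over the 4 samples 1.27, 1.26 and 1.26), 8 had 1.23, and 4, 3 and 5 were lowest (1.17, 1.13 and 1.13). Among the NOR chromosomes 16 (1.26) was then followed by 18 (1.22) and 19 (1.18), with 15 and 12 lowest at 1.11 each. Under genome-wide balancing, across the 14, contact with the NOR ends was lower on longer chromosomes (Pearson r = -0.559, n = 14 chromosomes, a description). Under balancing between autosomes the relation was much the same (Pearson r = -0.549).

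Counts were then summed over pairs of 20-Mb blocks from 3 Mb on, so that each NOR pair is 1 of 7858 block pairs on different autosomes, and tested with the edgeR quasi-likelihood test at a false discovery rate of 0.05 (Benjamini-Hochberg). Of all 7858 block pairs, 29.2% rose and 20.6% fell in L1 AMO. Of the 10 NOR pairs 0 rose by edgeR, with 0 also at an unadjusted p under 0.05 (31.0% of all pairs) and 0 by DESeq2 (24.1% of all pairs). By edgeR 1 of the 10 fell, and 2 did at an unadjusted p under 0.05 (24.6% of all pairs). DESeq2 called 1 as well (11.1% of all pairs). The edgeR share of all pairs that fell varied: it was 6.20% without SCR AMO replicate 1 and 10.1% without L1 AMO replicate 2, with 0 of the 10 NOR pairs in both. It was 31.7% without TMM scaling and 20.6% without L1 AMO replicate 1, with 4 of the 10 in both. The median log2 change of the 10 was -0.080, against -0.0045 over all block pairs. For the 10 this median was -0.16 to -0.037 with 1 sample left out.

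The pair that fell was that of chromosomes 12 and 19. In CPM, counts scaled to the normalized total between autosomes, it had 241 and 221 with SCR AMO and 203 and 182 with L1 AMO, with 5793, 1078, 1704 and 1117 contacts in the same order. L1 AMO was below SCR AMO without overlap. By the edgeR quasi-likelihood test it fell by 0.27 on the log2 scale (SE 0.0822, Benjamini-Hochberg adjusted p = 0.00316). The call was lost when either of 2 samples was left out: the log2 change was -0.19 without SCR AMO replicate 1 (edgeR adjusted p = 0.203) and -0.20 without L1 AMO replicate 2 (edgeR adjusted p = 0.0884).

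Chromosomes 12 and 16 had 248 and 232 CPM with SCR AMO and 218 and 202 with L1 AMO. Both L1 AMO samples were lower, and the log2 change of -0.19 had an edgeR adjusted p of 0.053. Chromosomes 16 and 19, the pair with the most contacts, had 420 and 380 CPM with SCR AMO and 416 and 371 with L1 AMO. The groups overlapped, with a log2 change of -0.025 (edgeR adjusted p = 0.906), although the balanced maps put L1 AMO above in this pair. The other 7 NOR pairs had log2 changes from -0.12 to 0.0052, with edgeR adjusted p from 0.145 to 0.970.

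Among the first blocks of the other autosomes 41 of 91 pairs rose and 0 fell by edgeR. At an unadjusted p under 0.05 edgeR had 44 up and 0 down, and DESeq2 called 28 up and 0 down. Their median log2 change was 0.12. Of the 70 pairs of a NOR end and another end, 14 rose and 4 fell, with a median log2 change of -0.027. The difference between NOR pairs and other pairs in this fit was not tested. The totals of both SCR AMO matrices depart from the numbers of valid pairs listed in the paper's supplement, while those of both L1 AMO samples are close to them. The SCR AMO samples have 1 matrix each and the L1 AMO samples the sum of 2, and the AMO cannot be told apart from any step of processing that differed along with it.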

How the data were processed

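The authors deposited raw contact counts for pairs of 500-kb bins from Hi-C libraries of mESCs, made per the submitters' processing notes with HiC-Pro 2.7.1b on mm9. The paper's methods name another version of HiC-Pro, and which of them made the matrices is not known here. The mapping options and the state of duplicate removal are not given in the sources used here. All columns of the matrices were used, and the H3K9me3 ChIP samples were not analysed. Bins were numbered along chromosomes 1 to 19, X, Y and M. The 2 matrices of each L1 AMO sample were added. What distinguishes them is not stated; their residual correlation per unit of depth was 0.131 and 0.211 within a sample and 0.104 to 0.105 between the L1 AMO samples. Total counts were 112381720 and 22252054 with SCR AMO and 58030519 and 46263849 with L1 AMO.

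A bin was dropped if its coverage was under 0.1 of the median of its chromosome in any sample, and 5093 bins on the autosomes and X remained. Maps were balanced by iterative correction in 18 to 19 iterations. Observed/expected is the balanced value over its mean for all bin pairs on 2 different autosomes. Compartments came from eigenvector 1 of the mean map within chromosomes, with the sign of chromosome 1 set by the paper's table of repeats (r = 0.824 across its bins) and carried to other chromosomes by contacts between them. Groups followed the sample labels. Ratios were compared by two-sided exact permutation and sign-flip tests over samples. Counts of pairs of 20-Mb blocks with at least 10 counts on average entered the edgeR quasi-likelihood fit with TMM factors and Benjamini-Hochberg adjustment over all 7858 pairs. The smallest exact p is 0.33 between groups and 0.13 against 0.

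All 10 NOR pairs are named. Single bins named are the highest and lowest of each NOR window, and single bin pairs are up to 3 with the highest values among those with at least 10 counts in each sample, of which there were 2. Other autosomes named are the 3 with the highest and the 3 with the lowest values with NOR ends. The bins near the first bin of chromosome 16 were chosen after their values were seen. The members and lists were chosen with earlier results of these data known.

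Alternatives were other windows, each NOR chromosome left out, chromosomes 11, 13, 14 and 17 as the comparison, A or B bins alone, no balancing, balancing between autosomes, either L1 AMO matrix alone, a coverage limit of 0.5, each sample left out, DESeq2, no TMM, other count filters, a replicate block, an offset from the balancing weights and 10-Mb blocks. Windows from 3.5 and 8 Mb, the first bin of chromosome 16 left out, summed counts over summed expected counts, and blocks from 3.5 Mb were chosen after seeing the data. Computation used Python 3.11.15, numpy 2.4.6, scipy 1.17.1, pandas 2.3.3, R 4.3.3, edgeR 4.0.16 and DESeq2 1.42.0. The measures were tested on simulated data.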

Additional observations from a re-analysis of the deposited data

How the results depend on the processing

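Values are log2 differences of L1 AMO from SCR AMO, or means of the 4 samples where said. The proximal ratio (-0.13) kept its direction in 24 of 25 alternatives, the mixed ratio (-0.13) in 21 of 21 and the distal ratio (0.11) in 16 of 16, but sizes varied. The proximal ratio was -0.28 without balancing, and its groups overlapped at 3 to 13 Mb (-0.0077), without chromosome 12 (-0.060) and among pairs of A bins (-0.044). The distal ratio was 0.027, with overlap, against chromosomes 11, 13, 14 and 17. Balancing between autosomes gave -0.022 for the mixed ratio, 0.042 for the proximal ratio and -0.27 for its mean (0.17). By construction it evens out the contacts of bins with other chromosomes. That mean was also negative without chromosome 16 (-0.022), against those 4 chromosomes (-0.049) and among pairs of A bins (-0.025). The same balancing gave 0.036 for the NOR ends over all autosomal pairs (-0.028), -0.0055 for the local enrichment of other autosomes (0.089), 0.0088 for the difference in local enrichment (-0.068), -0.24 for the mean of that difference (0.030) and 0.018 for the pair 12 and 16 (-0.17).

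The level of NOR ends over all autosomal pairs was 0.10 at 3 to 13 Mb and 0.039 without chromosome 12, and -0.086 to 0.030 with 1 sample left out. The difference in local enrichment was 0.064 at 3 to 13 Mb. Local enrichment of NOR ends (0.021) was -0.043 at 3 to 43 Mb, -0.034 without balancing, -0.061 without chromosome 16, -0.0046 without chromosome 19 and -0.058 at a coverage limit of 0.5, and -0.021 to 0.063 with 1 sample left out. Among alternatives chosen after seeing the data it was -0.068 at 3.5 to 23 Mb, -0.051 at 8 to 23 Mb, -0.062 without the first bin of chromosome 16 and -0.022 with summed counts.

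The mean of the difference in local enrichment was -0.21 without chromosome 16, -0.0050 without chromosome 19 and -0.037 at a coverage limit of 0.5. In alternatives chosen after seeing the data it was -0.042 at 3.5 to 23 Mb, -0.081 at 8 to 23 Mb, -0.078 without the first bin of chromosome 16 and -0.0039 with summed counts. The mean of the distal ratio (-0.050) was 0.039 without chromosome 18 and 0.19 against 11, 13, 14 and 17. The pair 16 and 19 (0.25) was -0.076 without balancing and -0.14 at a coverage limit of 0.5, which drops the first bin of chromosome 16. It was -0.15 at 3.5 to 23 Mb, -0.13 at 8 to 23 Mb and -0.14 without that bin, all chosen after seeing the data. The pair 15 and 18 (-0.062) was 0.031 at 8 to 23 Mb. Apart from how balancing works, the cause was not tested.

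In edgeR 3912 block pairs changed, 11126 with 10-Mb blocks (29271 tested) and 2326 to 3803 with 1 sample left out, the lone sample taken to vary like the other group. Without TMM 2043 rose and 2492 fell, against 2293 and 1619 with it. The NOR pairs that fell (1, against 20.6% of all) were 4 of 10 without TMM (31.7%), 2 with an offset from the balancing weights (14.9%), 4 of 40 with 10-Mb blocks (15.0%), 2 with blocks from 3.5 Mb, chosen after seeing the data (21.0%), and 0 to 4 with 1 sample left out (6.20% to 20.6%). No NOR pair rose by edgeR or DESeq2 in 14 of 14 alternatives, and at an unadjusted p under 0.05 edgeR had 1 up with 10-Mb blocks. The pair 12 and 19 had a log2 change from -0.35 to -0.19 over 13 alternatives, with an edgeR adjusted p of 0.203 without SCR AMO replicate 1 and 0.0884 without L1 AMO replicate 2, and under 0.05 by edgeR or DESeq2 in the other 11. With 10-Mb blocks it is 4 block pairs, with log2 changes of -0.27, -0.43, -0.31 and -0.19 and edgeR adjusted p of 0.0749, 0.000795, 0.00483 and 0.0811.

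The labels tie no samples of one replicate number together. Deviations from the group means correlated between samples of one number (r = 0.335 across 7858 block pairs), and with a replicate block the common dispersion was 0.000362 against 0.00148. With the block 5 of 10 NOR pairs fell (27.3% of all pairs) and 0 rose (32.1%) in edgeR. Mean paired differences equal those between groups and are not counted above.

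Depth limits single bin pairs, of which 2 among NOR ends had at least 10 counts in every sample.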
